A study of Rattus norvegicus with 10 samples.

Results

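DNA methylation was examined at genes of the forkhead (Fox), SOX, GATA, Krüppel-like (Klf), early growth response (Egr), basic helix-loop-helix, Tfap2, Tcf and Zic transcription factor families in the arcuate nucleus of rat offspring whose fathers had eaten a high-fat diet or chow. Members were the regions of the authors' table that lie on a numbered chromosome and whose nearest gene has a name of one of these families, without Sox2 and Bhlhe41. They numbered 189 of the 8957 regions and were named for 84 of 5565 genes. The name pattern matched 196 regions, of which 4 belonged to the 2 left-out genes and 3 were not on a numbered chromosome. The rule used gene names and positions and no methylation value. Of the 84 genes, 30 had 1 region, 42 had 2 or 3, and 12 had 4 or more, with at most 6. The families are defined by name, and Tcf20, a chromatin-associated coregulator, shares only its name with the other Tcf genes.

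The arcuate nucleus is the hypothalamic centre that senses circulating metabolic signals. Tissue came from 10 Wistar rats, 5 sired by chow-fed males ("Paternal C", here paternal chow) and 5 by males on a high-fat diet ("Paternal HF", here paternal high-fat), and every mother ate chow. Litters were reduced to at most 8 pups, all offspring were switched on postnatal day 35 from chow to the high-fat diet and were sampled on day 70, and no chow-fed offspring are among these samples. Sex, litter and sire are not given by the labels, so littermates may be among the animals, and the spread behind each p-value is that between these 10 rats. Reduced representation bisulfite sequencing reads methylation at CpG-rich restriction fragments, and each value is the authors' average methylation level of an animal over the CpGs of a region, in percent. Animals are called by their column names in the table, and single levels are given in the order 22HFB, 22HFR, 24HFB, 26HFB and 28HFB for paternal high-fat and 2HFB, 4HFB, 6HFBB, 6HFB and 8HFB for paternal chow offspring. Differences are paternal high-fat minus paternal chow, in percentage points, with SE the standard error of the difference in limma. There each region's variance is drawn toward a trend over all regions, so SE and p do not follow from the printed SDs alone. The authors selected the regions for a difference between these same groups, so no test or count below is independent evidence of one, and the sequencing depth behind the levels is unknown. A level of 0 is therefore only a listed 0. Methylation levels cannot show whether the dissection held the labelled tissue alone.

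Transcription factors of these families bind short DNA motifs and set cell identity during development. Proneural factors such as the Neurog genes drive progenitors to become neurons, and Hes factors such as Hes1, which Notch signalling induces, hold them back. In mice, Neurog3 acts in progenitors that give rise to arcuate feeding neurons. Foxo1 is kept out of the nucleus by insulin signalling and, in mouse arcuate neurons, promotes Agrp and restrains Pomc expression. Egr genes are switched on within a short time of neuronal activity. Genes of this kind often lie in CpG islands, stretches rich in CpG that are mostly free of methylation in normal tissue.

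The promoters of 5 member genes are printed because the authors' table places a region within 250 bases upstream of the start site it uses, higher in paternal high-fat offspring at Foxo1, Foxa3 and Klf14 and lower at Gata2 and Hes5. These 5 genes were chosen after their values were seen. Each sequence is the 250 bases before the RefSeq start site in build GRCr8, read 5′ to 3′ on the gene's strand, with every CpG, the unit that is methylated, in capitals. The build of the authors' coordinates is not given in the sources used here, so the regions were not placed on these letters. The positions are chr2:138462724-138462973, plus strand, 40 CpGs for Foxo1, chr1:87799486-87799735, minus strand, 19 CpGs for Foxa3, chr4:60524286-60524535, minus strand, 22 CpGs for Klf14, chr4:122216031-122216280, plus strand, 13 CpGs for Gata2 and chr5:170804327-170804576, plus strand, 36 CpGs for Hes5.
Foxo1: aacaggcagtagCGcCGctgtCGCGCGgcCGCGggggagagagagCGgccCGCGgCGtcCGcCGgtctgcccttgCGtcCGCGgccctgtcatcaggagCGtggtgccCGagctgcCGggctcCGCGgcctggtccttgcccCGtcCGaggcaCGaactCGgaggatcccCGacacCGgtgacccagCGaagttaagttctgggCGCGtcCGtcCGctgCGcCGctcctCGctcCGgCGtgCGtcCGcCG
Foxa3: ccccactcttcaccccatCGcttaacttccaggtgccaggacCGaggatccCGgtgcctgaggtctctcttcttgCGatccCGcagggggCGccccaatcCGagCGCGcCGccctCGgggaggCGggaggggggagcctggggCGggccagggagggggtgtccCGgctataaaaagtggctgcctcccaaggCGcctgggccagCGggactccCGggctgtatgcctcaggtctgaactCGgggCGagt
Klf14: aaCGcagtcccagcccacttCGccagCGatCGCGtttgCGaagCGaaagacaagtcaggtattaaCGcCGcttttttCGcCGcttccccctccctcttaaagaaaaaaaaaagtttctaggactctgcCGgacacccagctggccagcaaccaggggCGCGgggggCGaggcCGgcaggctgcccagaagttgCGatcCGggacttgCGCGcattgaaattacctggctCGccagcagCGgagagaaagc
Gata2: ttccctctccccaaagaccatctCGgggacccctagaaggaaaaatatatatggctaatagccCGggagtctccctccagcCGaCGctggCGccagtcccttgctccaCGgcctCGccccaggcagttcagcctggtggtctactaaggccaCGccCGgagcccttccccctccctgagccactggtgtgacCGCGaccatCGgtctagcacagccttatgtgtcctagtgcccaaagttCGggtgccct
Hes5: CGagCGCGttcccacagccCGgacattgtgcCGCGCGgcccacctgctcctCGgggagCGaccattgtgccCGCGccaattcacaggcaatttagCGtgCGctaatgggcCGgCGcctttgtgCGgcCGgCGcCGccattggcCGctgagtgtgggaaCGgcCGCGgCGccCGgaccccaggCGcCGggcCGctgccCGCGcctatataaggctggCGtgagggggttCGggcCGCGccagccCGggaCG

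All 84 member genes matched the RefSeq gene table by symbol, and 52 had a promoter in the RefSeq promoter table. The 250 bases before the start held a median of 17.5 CpGs in these 52, with a range of 0 to 46, and a median of 6 in the 27457 promoters of all genes in that table. The GC box GGGCGG, a motif bound by Klf and Sp factors that itself contains a CpG, was found on either strand in 33 of the 52 (63.5%) and in 32.4% of all promoters. The E-box CANNTG, the motif of basic helix-loop-helix factors, was found in 26 of the 52 (50%) and in 65.2% of all promoters. The forkhead motif TGTTTAC was found in 1 of the 52 (1.92%) and in 3.25% of all promoters. Among the printed promoters, that of Foxa3 held 2 GC boxes and those of Foxo1, Klf14, Gata2 and Hes5 held none.

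Most member regions were sparsely methylated and had a slightly higher level in paternal high-fat offspring. The mean over both groups was under 5% at 144 of the 189 regions, between 5% and 20% at 40, and 20% or more at 5, with a median of 2.67%. The mean was higher in paternal high-fat offspring at 136 member regions and lower at 53, so 72% were higher beside 71% of all 8957 regions. The median difference was 1.499 points (1.41 points over all regions), and the extremes were −6.40 and 10.6 points. Averaged over the members, the levels of single animals were 5.26%, 6.53%, 5.28%, 5.25% and 4.93% in paternal high-fat and 3.99%, 4.96%, 4.37%, 4.399% and 3.97% in paternal chow offspring. The lowest paternal high-fat animal (28HFB, 4.93%) lay just below the highest paternal chow animal (4HFB, 4.96%), so the groups overlapped at their edge. The group means were 5.45% ± 0.619 (SD, n = 5) and 4.34% ± 0.404 (SD, n = 5), a difference of 1.11 points that was 0.844 points without the highest animal, 22HFR.

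None of the 189 members was called by limma after Benjamini-Hochberg adjustment over the whole table at 0.05, as was none (0%) of all regions, and the lowest adjusted p of a member was 0.235. At an unadjusted p below 0.05, limma had 48 members (25.4%), 39 higher and 9 lower, beside 20.9% of all regions, 16.4% higher and 4.52% lower. This count of 48 was 24, 27 and 29 without 6HFBB, 2HFB and 8HFB of the paternal chow group. With 1 animal left out, the count of 1875 over all 8957 regions ran from 1392 (without 2HFB) to 2072 (without 22HFB). In the authors' deposited table, 3 members (1.59%) had a q below 0.05, all 3 higher, beside 0.848% of all regions in either direction and 0.737% higher. At 7 members (3.7%) all animals of one group lay above all of the other, 5 higher and 2 lower, beside 5.15% of all regions (3.93% higher and 1.22% lower). With any single animal left out there were 11 to 24 such members. Fewer animals overlap less, and no such count over all regions is given here, so this range cannot be set beside 5.15%. A difference of at least 5 points was present at 11 members (5.82%), beside 6.59% of all regions. The members' shares lay near those of all regions, and the 1.59% called by q rests on 3 regions, too few to tell from 0.848%. None of the differences named below passed the adjusted threshold.

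**Figure D1:**
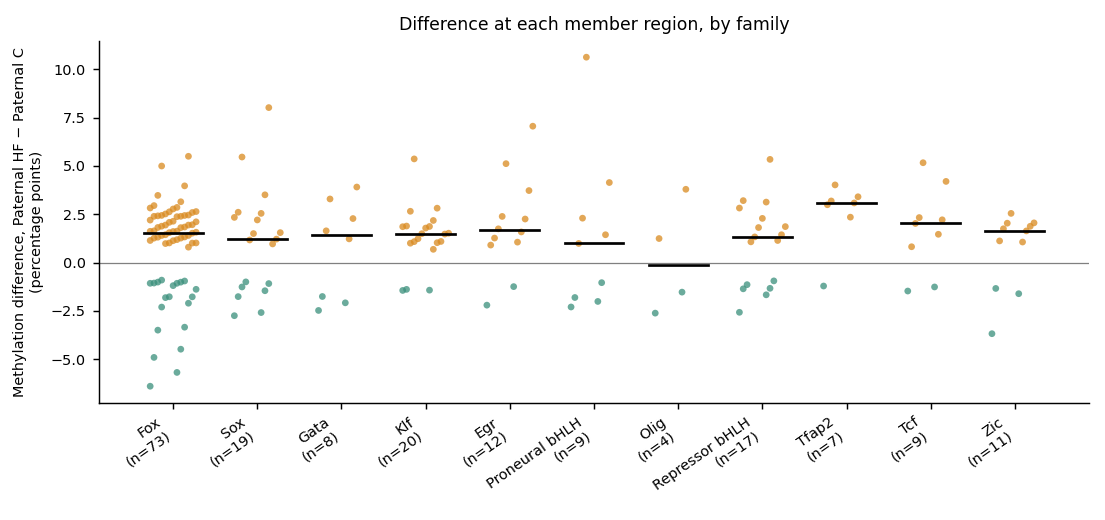
Methylation difference between group means at each of the 189 member regions, in percentage points, by family; each point is a region, orange above and green below 0, and the black line is the family's median. The medians lie between −0.143 points for the 4 Olig regions and 3.08 points for the 7 Tfap2 regions, and the highest point is the region named for Neurog2 at 10.6 points.

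The members lay elsewhere than most regions of the table. By the file's annotation, 83 (43.9%) were in exons, beside 20.2% of all regions, and 33 (17.5%) at promoters, beside 38.3%. A further 47 were intergenic, 25 lay in introns and 1 at a transcription termination site. Of the exonic members, 26 lay in genes with a single exon. The distance to the start site had a median of 1004 bases, against 378 bases over all regions. For 13 members the annotated exon, intron or promoter was that of another transcript than the one whose start site named the region.

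Among promoters, exons, introns and intergenic regions, the share of higher members was largest at promoters and smallest in exons. The single region at a termination site was higher. At promoters, 29 of 33 members (87.9%) were higher in paternal high-fat offspring, beside 70.6% of all promoter regions. The 4 lower ones were named for Gata2, Hes5, Klf16 and Sox11. All 17 forkhead regions with the file's promoter label were higher, with differences that did not pass the test. This group was singled out after its values were seen. By distance, 32 of 40 members (80%) within 300 bases of the start were higher, beside 70.1% of all such regions. Within that distance, exonic forkhead regions of Foxc2, Foxo6, Foxi2 and Foxq1 were lower. An exonic one of Foxo3 and an intronic one of Foxn4 were higher. In exons, 52 of 83 members (62.7%) were higher, beside 70.8% of all exonic regions, and of the 32 exonic forkhead regions 17 were higher and 15 lower. Among intronic and intergenic members, 19 of 25 (76%) and 35 of 47 (74.5%) were higher. No test of these shares was made, because several regions belong to the same gene and all come from the same animals.

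**Figure D2:**
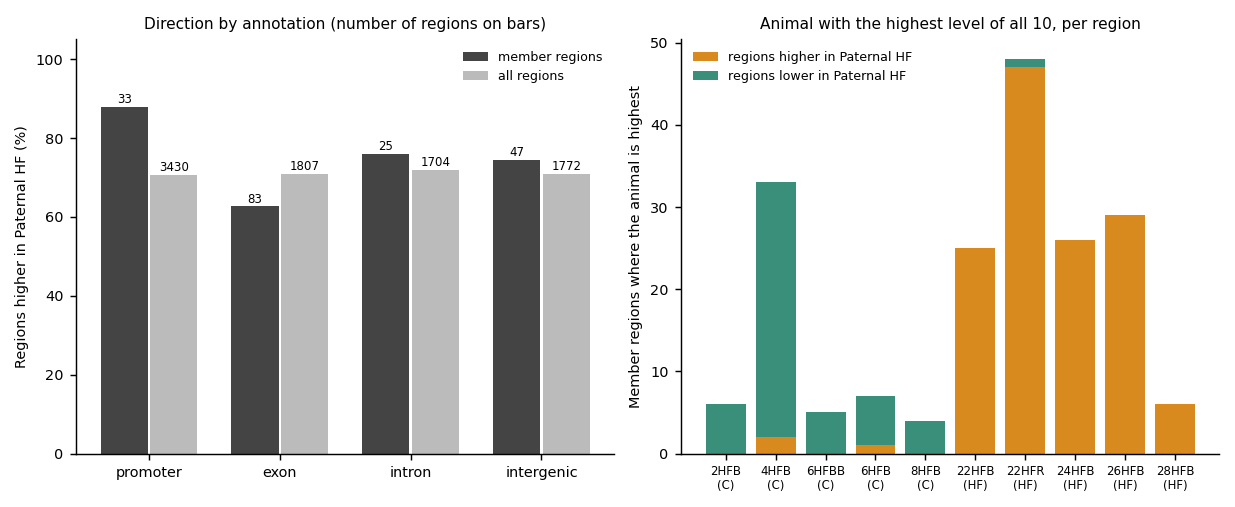
Left, percent of regions with a higher mean in paternal high-fat offspring by annotation, for the member regions (dark) and all regions (light), with the number of regions on each bar; 87.9% of 33 promoter members and 62.7% of 83 exonic members were higher. Right, number of member regions at which each animal had the highest level of all 10, split by the direction of the region; 4HFB was highest at 31 of the 53 lower regions and 22HFR at 47 of the 136 higher regions.

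The forkhead family, whose factors share a winged-helix DNA-binding domain, had 73 regions at 27 genes, 53 higher and 20 lower. Foxa1, which encodes a pioneer factor that opens closed chromatin, had the smallest p of the family, in exon 2 of 4 (chromosome 6, 78546547 to 78546601, 10 CpGs). Its levels were 2.03%, 3.51%, 2.27%, 2.72% and 2.52% in paternal high-fat offspring and 5.72%, 8.29%, 6.31%, 5.32% and 4.11% in paternal chow offspring. All paternal high-fat animals lay below all paternal chow animals, and the means were 2.61% ± 0.566 (SD, n = 5) against 5.95% ± 1.53 (SD, n = 5), a difference of −3.34 points (SE 1.002, limma unadjusted p = 0.00489). The other 3 Foxa1 regions did not share one direction. The region at 2466 bases from the start, in the same exon, averaged 18.8% ± 4.10 against 15.4% ± 4.36, that at the promoter 2.07% ± 1.28 against 0.880% ± 0.583, and the intergenic one 3.11% ± 2.43 against 5.42% ± 1.90 (SD, n = 5 each).

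Foxn3, which encodes a transcriptional repressor tied to the cell cycle, had the smallest q of the members, 0.00291 in the authors' deposited table. The region was intergenic (chromosome 6, 123656189 to 123656240, 15 CpGs), −78520 bases from the Foxn3 start, so the file ties it to Foxn3 by distance. Its levels were 1.44%, 5.61%, 7.02%, 0% and 1.85% in paternal high-fat offspring and 0%, 0%, 0%, 0.190% and 0% in paternal chow offspring. Methylation was listed at 0 in 4 of 5 paternal chow animals and also in 26HFB, and was above 5% in 22HFR and 24HFB alone. The difference was 3.14 points (SE 1.15, limma unadjusted p = 0.0164) and 2.19 points without 24HFB. At the Foxn3 promoter the means were 5.52% ± 4.11 against 3.08% ± 1.31 (SD, n = 5 each), and that difference of 2.44 points was 0.706 points without 22HFR.

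The Foxo genes, whose products are restrained by insulin and growth factor signalling, had 8 regions with 4 higher and 4 lower. The region in exon 2 of 4 of Foxo6, a brain-enriched member in mice, had the largest negative difference of all members (chromosome 5, 139208629 to 139208675, 18 CpGs). Its levels were 10.8%, 21.0%, 10.6%, 22.9% and 11.3% in paternal high-fat offspring and 20.6%, 19.9%, 24.7%, 22.8% and 20.7% in paternal chow offspring. The animals 22HFR and 26HFB lay in the range of the paternal chow animals, and the other 3 paternal high-fat animals lay far below it. The difference was −6.40 points (SE 2.84, limma unadjusted p = 0.0408). The adjacent region 56 bases away (chromosome 5, 139208731 to 139208858) had means of 26.8% ± 4.398 (SD, n = 5) against 32.4% ± 6.70 (SD, n = 5). There 22HFR (31.1%) and 26HFB (31.9%) again stood above the other 3 paternal high-fat animals (23.1% to 24.3%), and the difference of −5.68 points was −3.19 points without 4HFB.

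Foxo1 was methylated to at most 5.13% in every animal. Its promoter regions averaged 2.62% ± 1.75 against 1.48% ± 1.71 and 1.94% ± 2.10 against 0.675% ± 0.216, and the region in its first intron 0.811% ± 0.871 against 2.58% ± 1.83 (SD, n = 5 each). These groups overlapped, and limma's unadjusted p was 0.302, 0.161 and 0.0695. Foxo3 averaged 2.87% ± 2.12 against 0.761% ± 0.617 at its promoter and 5.57% ± 4.66 against 2.93% ± 2.56 in an exon of another transcript (SD, n = 5 each), where 22HFR stood at 13.9% and its group mates at 3.01% to 4.13%. The Foxo1 and Foxo3 regions were chosen for the known role of these genes, after their values were seen.

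Foxa3, a regulator of liver metabolism, had the most methylated member region of all, in exon 2 of 2 (chromosome 1, 79922201 to 79922403). Its levels were 89.1%, 84.2%, 82.6%, 88.7% and 80.7% in paternal high-fat offspring and 79.2%, 81.5%, 82.5%, 79.4% and 77.8% in paternal chow offspring. The groups overlapped at their edge, and the difference was 4.99 points (SE 2.10, limma unadjusted p = 0.0323). At its promoter, printed above, the means were 3.35% ± 3.07 (SD, n = 5) against 0.962% ± 0.111 (SD, n = 5), with 24HFB at 8.40% and 28HFB at 4.09%, and the difference of 2.39 points was 1.13 points without 24HFB.

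Large forkhead differences were also present at Foxi2 and Foxl1, among others. Foxi2 averaged 13.5% ± 2.00 (SD, n = 5) against 18.0% ± 3.11 (SD, n = 5) in exon 2 of 3 (chromosome 1, 207654638 to 207654689, 12 CpGs), and 13.7% in 6HFB lay within the paternal high-fat range. The intergenic region named for Foxl1, 80076 bases from its start (chromosome 19, 53135654 to 53135988), had means of 29.4% ± 8.14 (SD, n = 5) against 23.9% ± 2.94 (SD, n = 5). Its difference of 5.50 points was 2.84 points without 24HFB, which stood at 39.98%. Foxd2 averaged 3.27% ± 2.15 (SD, n = 5) against 0.449% ± 0.518 (SD, n = 5) at its promoter (chromosome 5, 133709619 to 133709662; SE 0.977, limma unadjusted p = 0.0120), with 0.909% in 22HFB inside the paternal chow range of 0% to 1.09%.

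Groups without overlap were also present at 2 intergenic forkhead regions, both higher. The region at −20493 bases from the Foxn2 start (chromosome 6, 12158702 to 12158765) had levels of 5.26%, 6.34%, 1.77%, 2.50% and 1.64% in paternal high-fat offspring and 0%, 0.694%, 0.514%, 1.58% and 0.861% in paternal chow offspring. The lowest paternal high-fat animal (1.64%) lay just above the highest paternal chow animal (1.58%). The region at −18820 bases from the Foxj3 start (chromosome 5, 138586950 to 138586996) had means of 2.86% ± 2.39 (SD, n = 5) against 0.233% ± 0.237 (SD, n = 5), with 22HFB (0.645%) and 22HFR (0.657%) just above 6HFB (0.526%). It was named after its values were seen, to complete the count.

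Forkhead genes with 4 or more regions differed in how far their regions shared a direction. All 4 regions of Foxd1, a regulator of kidney stroma and ventral forebrain development, were higher, by 1.82 to 2.46 points. They were intergenic, 11491 to 33841 bases from the Foxd1 start, so they are Foxd1's by distance only. At 33764 bases the difference of 1.94 points was 0.173 points without 26HFB. All 4 regions of Foxl2, a factor of the ovary and pituitary, were higher by 1.55 to 2.37 points, as were all 4 of Foxn4, a retinal and spinal cord factor, by 0.797 to 2.59 points. The largest Foxn4 difference lay in an exon of another transcript, 28469 bases from the Foxn4 start. Foxd2 had 4 of 5 regions higher. Foxc2, a regulator of mesenchyme and lymphatic vessels, had 3 higher and 3 lower within its single exon, from −2.10 to 2.08 points. Foxn2 had 2 higher and 2 lower, and the region at −21291 bases, with means of 1.87% ± 1.53 against 5.36% ± 8.13 (SD, n = 5 each), reversed to 0.0784 points without 4HFB, which stood at 19.7%.

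**Figure D3:**
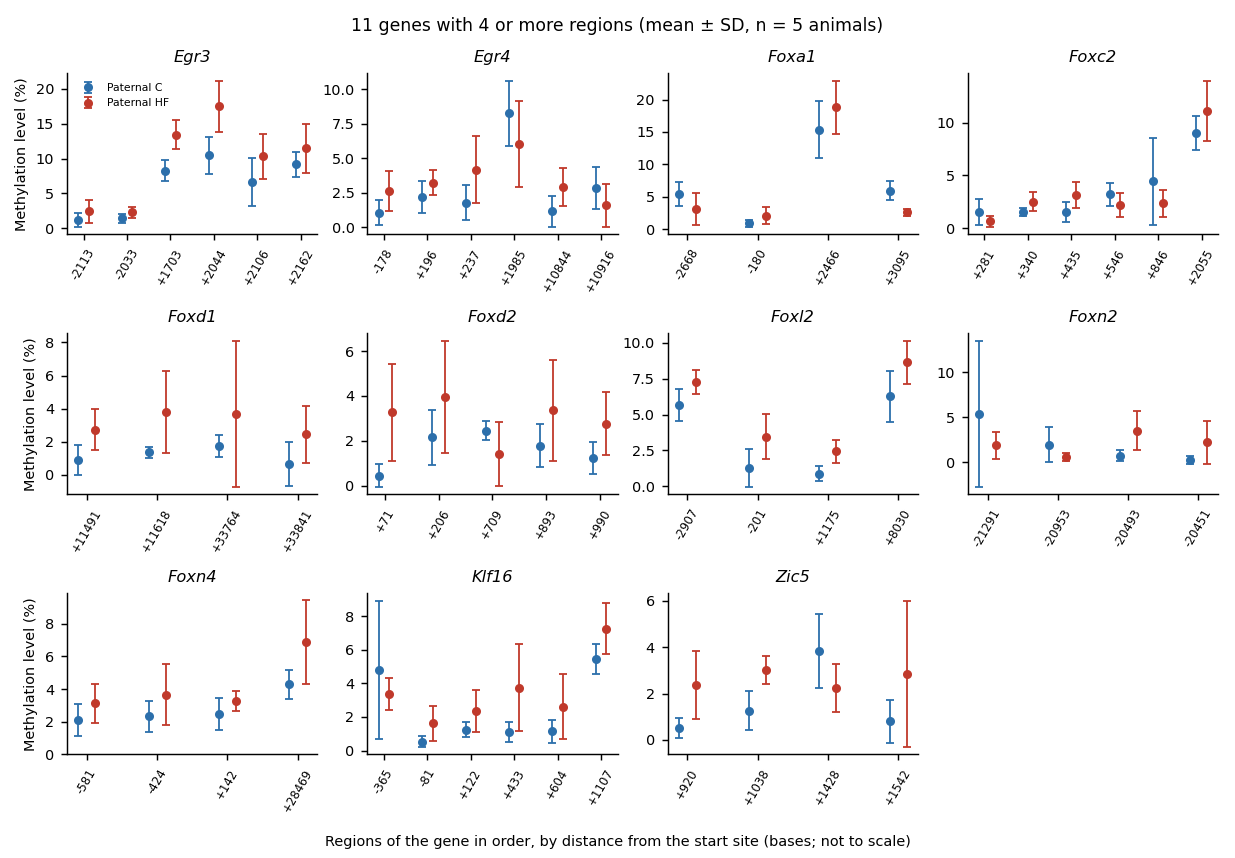
Mean methylation level in percent at each region of 11 of the 12 member genes with 4 or more regions, ordered by distance from the start site in bases, for paternal chow (blue) and paternal high-fat (red) offspring; bars are the SD over 5 animals and may reach below 0. Every region of Egr3, Foxd1, Foxl2 and Foxn4 has a higher paternal high-fat mean, and Foxc2 has 3 regions in each direction.

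Egr genes encode zinc finger factors induced by neuronal activity, and 10 of their 12 regions were higher, beside 71% of all regions. All 6 regions of Egr3 were higher, and the 4 in exon 2 of 2 were more methylated than the 2 upstream. The region 2044 bases from the start (chromosome 15, 51758998 to 51759046, 10 CpGs) had levels of 14.8%, 16.5%, 21.8%, 13.5% and 20.8% in paternal high-fat offspring and 7.89%, 7.86%, 11.2%, 14.3% and 11.1% in paternal chow offspring. Only 6HFB among the paternal chow animals, at 14.3%, reached the paternal high-fat range. The means were 17.5% ± 3.67 (SD, n = 5) against 10.4% ± 2.68 (SD, n = 5), a difference of 7.05 points (SE 2.14, limma unadjusted p = 0.00535).

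The Egr3 region 1703 bases from the start (chromosome 15, 51758640 to 51758721) had levels of 14.9%, 14.1%, 14.7%, 13.5% and 9.84% in paternal high-fat offspring and 6.76%, 7.80%, 7.86%, 8.35% and 10.7% in paternal chow offspring. Animal 28HFB alone lay inside the paternal chow range, and the other 4 paternal high-fat animals stood between 13.5% and 14.9%. The difference was 5.11 points (SE 1.53, limma unadjusted p = 0.00474). The next 2 regions averaged 10.3% ± 3.21 against 6.59% ± 3.44 and 11.5% ± 3.45 against 9.20% ± 1.79 (SD, n = 5 each), and the upstream ones 2.47% ± 1.65 against 1.20% ± 1.02 and 2.33% ± 0.797 against 1.43% ± 0.604. Egr4 had 4 of 6 regions higher, and its exon 2 region, at 6.05% ± 3.10 against 8.26% ± 2.36 (SD, n = 5 each), was lower.

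Krüppel-like factors bind GC-rich boxes, and 17 of their 20 regions were higher. All 3 regions of Klf14, a single-exon gene that is imprinted in mice and humans and tied to lipid traits in humans, were higher. The exonic region 383 bases from the start (chromosome 4, 58250392 to 58250437, 10 CpGs) had levels of 10.8%, 17.5%, 10.3%, 14.9% and 13.1% in paternal high-fat offspring and 9.66%, 3.85%, 6.35%, 11.95% and 7.98% in paternal chow offspring. The groups overlapped through 6HFB, at 11.95%. The means were 13.3% ± 2.99 (SD, n = 5) against 7.96% ± 3.10 (SD, n = 5), a difference of 5.36 points (SE 1.92, limma unadjusted p = 0.0143).

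The Klf14 region 255 bases from the start (chromosome 4, 58250531 to 58250554) was lower in level and did not overlap between groups. Its levels were 4.03%, 1.71%, 1.40%, 0.959% and 1.74% in paternal high-fat offspring and 0.893%, 0%, 0.238%, 0.625% and 0.620% in paternal chow offspring. Animal 22HFB stood apart, and the difference of 1.49 points was 0.979 points without it. At the promoter, whose sequence is printed above, the means were 2.90% ± 1.13 (SD, n = 5) against 1.01% ± 0.745 (SD, n = 5).

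Klf16, which encodes a repressor that acts on dopamine receptor promoters in mice, had 6 regions with 5 higher. Its promoter region (chromosome 7, 12006599 to 12006659, 13 CpGs) had a q of 0.0154 in the authors' deposited table. The levels were 2.47%, 2.24%, 2.29%, 0% and 1.08% in paternal high-fat offspring and 0.611%, 0.721%, 0.925%, 0.0916% and 0.325% in paternal chow offspring. Of the paternal high-fat animals 4 lay above all paternal chow animals, and 26HFB was listed at 0. The difference was 1.08 points (SE 0.548, limma unadjusted p = 0.0683). The promoter region at −365 bases was lower, at 3.38% ± 0.954 against 4.81% ± 4.11 (SD, n = 5 each). Animal 4HFB stood there at 11.98%, and without it the difference was 0.366 points in place of −1.43 points.

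SOX factors carry an HMG-box domain that bends DNA, and 12 of their 19 regions were higher. The most methylated was the promoter region of Sox10, a determinant of oligodendrocytes (chromosome 7, 120404289 to 120404339, 10 CpGs). Its levels were 37.5%, 45.8%, 52.6%, 34.1% and 33.5% in paternal high-fat offspring and 31.9%, 24.01%, 37.1%, 35.4% and 34.9% in paternal chow offspring. The animals 22HFR and 24HFB stood highest and the other 3 paternal high-fat animals lay at or near the paternal chow range. The difference was 8.01 points (SE 4.402, limma unadjusted p = 0.0901) and 5.04 points without 24HFB. The exonic Sox10 region averaged 15.9% ± 2.57 (SD, n = 5) against 12.4% ± 2.21 (SD, n = 5).

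Sox7, an endothelial factor, had neighbouring regions of opposite direction in its single intron. The region 537 bases from the start (chromosome 15, 47294211 to 47294261) had means of 13.98% ± 5.27 (SD, n = 5) against 8.52% ± 3.38 (SD, n = 5), a difference of 5.46 points (SE 2.48, limma unadjusted p = 0.0452) that was 3.27 points without 22HFR. The region 22 bases before it averaged 4.62% ± 2.65 against 7.20% ± 4.66 (SD, n = 5 each). Sox12, a factor of developing neurons and other embryonic cells, averaged 4.49% ± 1.94 (SD, n = 5) against 1.95% ± 1.53 (SD, n = 5) in its single exon (chromosome 3, 147864960 to 147865040; SE 1.14, limma unadjusted p = 0.0424). Both Sox11 regions were lower, and at its promoter 4HFB stood at 14.6% with the other 9 animals between 0% and 3.65%.

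GATA factors, zinc finger proteins of blood, heart, pituitary and brain, had 5 of 8 regions higher. In exon 4 of 7 of Gata2 (chromosome 4, 120136134 to 120136406, 14 CpGs) the levels were 13.1%, 11.01%, 14.96%, 9.67% and 10.1% in paternal high-fat offspring and 10.8%, 10.4%, 7.16%, 6.11% and 4.89% in paternal chow offspring. The lowest paternal high-fat animals, 26HFB and 28HFB, lay below 2HFB and 4HFB. The difference was 3.91 points (SE 1.66, limma unadjusted p = 0.0342). The Gata2 promoter and exon 2 regions lay the other way, at 2.86% ± 2.08 against 5.33% ± 2.56 and 1.30% ± 0.748 against 3.06% ± 3.56 (SD, n = 5 each), with 4HFB highest at both. The region of Gata4 with the smallest p, in exon 2 of 7 (chromosome 15, 46428269 to 46428359), had means of 5.06% ± 1.55 (SD, n = 5) against 2.79% ± 1.22 (SD, n = 5) (SE 1.05, limma unadjusted p = 0.0485).

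Proneural basic helix-loop-helix genes had 5 of 9 regions higher, and the largest difference of all members was named for Neurog2. This region lay in an exon of another transcript, exon 4 of 14, at 59087 bases from the Neurog2 start (chromosome 2, 232021563 to 232021645, 10 CpGs), so it is Neurog2's by distance only. Its levels were 27.2%, 22.9%, 25.9%, 15.8% and 15.4% in paternal high-fat offspring and 9.61%, 11.2%, 10.7%, 9.64% and 12.9% in paternal chow offspring. Every paternal high-fat animal lay above every paternal chow animal, and within the paternal high-fat group 22HFB, 22HFR and 24HFB stood above 26HFB and 28HFB. The means were 21.4% ± 5.54 (SD, n = 5) against 10.8% ± 1.36 (SD, n = 5), a difference of 10.6 points (SE 2.54, limma unadjusted p = 0.000931, adjusted p = 0.235). Leaving out any single animal gave 9.18 to 12.1 points.

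Neurog3, which acts in arcuate progenitors of mice, lay the other way. It averaged 1.05% ± 0.534 (SD, n = 5) against 2.86% ± 1.34 (SD, n = 5) in its single exon (SE 0.813, limma unadjusted p = 0.0433). It was chosen for this known role after its values were seen. Neurod2, a factor of maturing neurons that the file types as a pseudogene and the RefSeq table as protein-coding, had 3 regions. Of these, 1 was lower without overlap, and 2 were higher, by 0.987 points at the promoter and 1.44 points at −6091 bases. In its exon 6 of 6 (chromosome 10, 86281839 to 86281861) the levels were 0%, 0.370%, 0.741%, 0.556% and 0.385% in paternal high-fat offspring and 0.956%, 1.36%, 1.40%, 1.18% and 2.35% in paternal chow offspring. Every paternal high-fat animal was at most at 0.741% and every paternal chow animal at least at 0.956%, a difference of −1.04 points (SE 0.412, limma unadjusted p = 0.0245).

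The repressor type of basic helix-loop-helix genes (Hes, Hey and Bhlhe) had 11 of 17 regions higher. Bhlhe22, a repressor that shapes neuronal identity in cortex and spinal cord of mice, had 2 regions 17 bases apart in its single exon with opposite directions. The first (chromosome 2, 102686074 to 102686159, 18 CpGs) had levels of 1.69%, 3.87%, 1.36%, 4.13% and 2.86% in paternal high-fat offspring and 0%, 0%, 2.30%, 0% and 0.181% in paternal chow offspring. Among paternal chow animals, 6HFBB stood at 2.30% and the other 4 at 0% to 0.181%. Its difference was 2.28 points (SE 0.786, limma unadjusted p = 0.0115), and the second region averaged 1.29% ± 0.622 against 2.63% ± 1.41 (SD, n = 5 each).

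Among the Hes genes, Hes7, an oscillator of the segmentation clock, averaged 2.33% ± 1.62 (SD, n = 5) against 0.520% ± 0.247 (SD, n = 5) in its intron 3 of 3 (chromosome 10, 55709085 to 55709200; SE 0.751, limma unadjusted p = 0.0301), and all 3 of its regions were higher. Hes1, the main Notch target of neural progenitors, had an intergenic region at −1279 bases with a difference of 5.34 points, or 2.004 points without 22HFB, which stood at 19.6%. The other paternal high-fat animals stood there between 0% and 6.18% and the paternal chow animals between 0% and 4.07%. The other Hes1 region, intergenic at −53343 bases, was lower, at 0.478% ± 0.203 against 2.15% ± 1.88 (SD, n = 5 each). Hes5 averaged 1.34% ± 0.749 against 2.49% ± 0.979 at the promoter printed above and 3.28% ± 2.12 against 1.84% ± 0.911 in an intron (SD, n = 5 each), so its 2 regions had opposite directions.

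Olig genes, which specify oligodendrocytes and motor neurons, had 2 higher and 2 lower regions. The smallest p were those of Olig2 in exon 1 of 2, at 1.27% ± 1.29 (SD, n = 5) against 2.80% ± 1.90 (SD, n = 5) (SE 1.02, limma unadjusted p = 0.158), and of Olig1, at 3.01% ± 1.37 (SD, n = 5) against 1.77% ± 0.721 (SD, n = 5) (SE 0.889, limma unadjusted p = 0.184). Without 4HFB, which stood at 6.09%, the Olig2 difference of −1.53 points was −0.708 points, and without 26HFB the Olig1 difference of 1.24 points was 0.752 points.

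Tfap2 genes, regulators of neural crest and skin, had 6 of 7 regions higher and the largest family median, 3.08 points. The intergenic region upstream of Tfap2c (chromosome 3, 170548251 to 170548269) had levels of 5.42%, 5.24%, 7.07%, 4.74% and 2.77% in paternal high-fat offspring and 0.729%, 0.769%, 1.35%, 0.778% and 4.61% in paternal chow offspring. Among paternal chow animals 8HFB stood at 4.61% and the other 4 at 0.729% to 1.35%, and 28HFB was the lowest paternal high-fat animal. The difference was 3.40 points (SE 1.10, limma unadjusted p = 0.00782). Tfap2b averaged 11.997% ± 3.24 (SD, n = 5) against 7.98% ± 1.64 (SD, n = 5) in an exon annotated to another of the file's transcripts (chromosome 9, 25415854 to 25415924; SE 1.72, limma unadjusted p = 0.0349).

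Tcf genes hold both the HMG-box partners of beta-catenin (Tcf7, Tcf7l1) and helix-loop-helix E proteins (Tcf4, Tcf12), and 7 of 9 regions were higher. The intergenic region at −1059 bases from the Tcf7 start (chromosome 10, 37646611 to 37647110, 19 CpGs) had levels of 12.4%, 16.2%, 10.1%, 11.96% and 12.98% in paternal high-fat offspring and 9.89%, 6.63%, 8.40%, 9.82% and 7.84% in paternal chow offspring. The groups did not overlap, with 10.1% in 24HFB just above 9.89% in 2HFB. The difference was 4.20 points (SE 1.53, limma unadjusted p = 0.0156).

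The intergenic region upstream of Tcf20 (chromosome 7, 123773091 to 123773150) had a q of 0.00754 in the authors' deposited table. Its levels were 5.00%, 11.1%, 12.6%, 16.8% and 12.5% in paternal high-fat offspring and 3.06%, 11.5%, 4.89%, 5.98% and 6.65% in paternal chow offspring. The groups overlapped through 22HFB, at 5%, and 4HFB, at 11.5%. The difference was 5.16 points (SE 2.12, limma unadjusted p = 0.0290). Of the E protein genes, Tcf4 averaged 3.58% ± 2.93 against 1.25% ± 1.30 in an intron and Tcf12 0.727% ± 0.492 against 1.99% ± 1.37 in its first exon (SD, n = 5 each), with overlap at both; they were added after their values were seen.

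Zic genes, zinc finger factors of the dorsal neural tube and cerebellum, had 8 of 11 regions higher. In exon 1 of 4 of Zic2 (chromosome 15, 108909390 to 108909487) the levels were 1.48%, 2.77%, 3.94%, 5.03% and 3.09% in paternal high-fat offspring and 5.50%, 13.3%, 5.88%, 5.34% and 4.65% in paternal chow offspring. Animal 4HFB stood far above the other paternal chow animals, and 26HFB, at 5.03%, overlapped them. The difference was −3.68 points (SE 1.57, limma unadjusted p = 0.0344) and −2.08 points without 4HFB. The region 15 bases further on in the same exon lay the other way, at 5.08% ± 2.46 against 3.45% ± 1.27 (SD, n = 5 each). Zic5, the neighbouring gene, had 3 of 4 regions higher, and the one with the smallest p, in intron 1 of 2, averaged 2.38% ± 1.48 (SD, n = 5) against 0.501% ± 0.425 (SD, n = 5) (chromosome 15, 108897765 to 108897800; SE 0.728, limma unadjusted p = 0.0220).

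**Figure D4:**
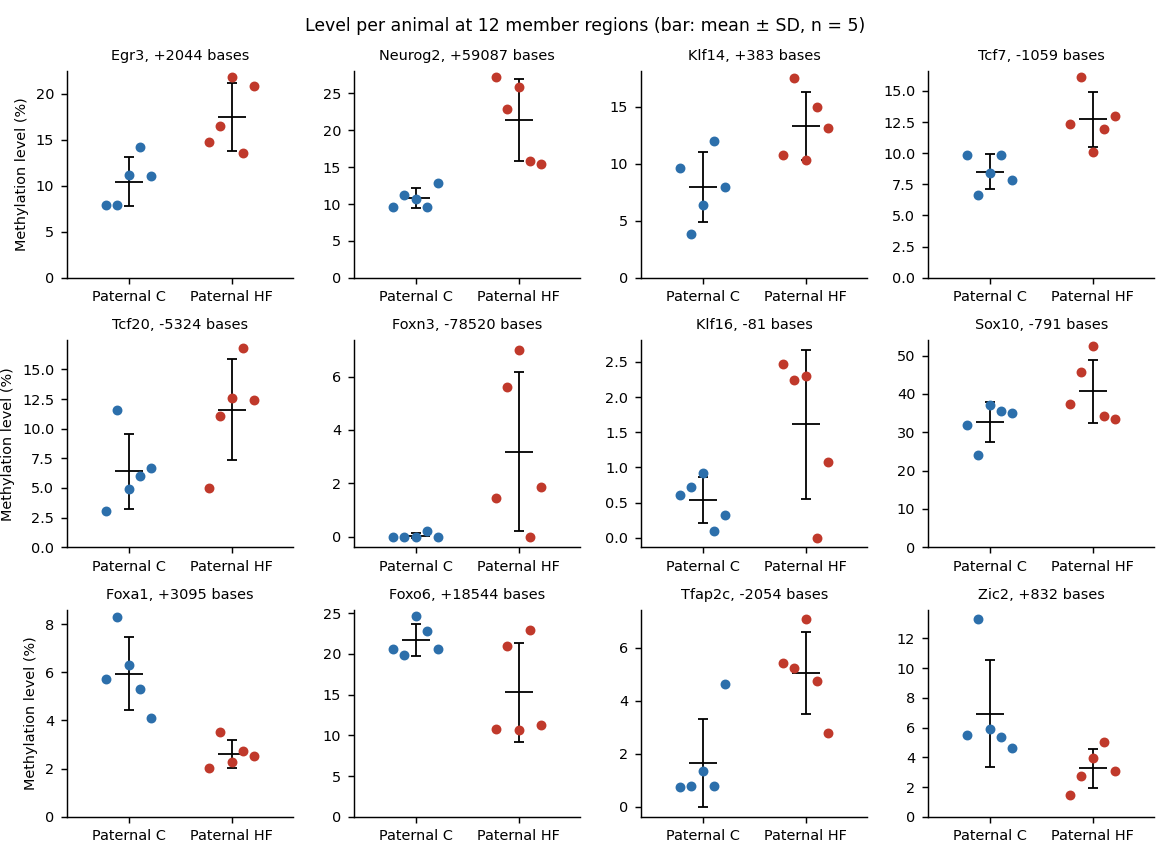
Methylation level in percent of each of the 10 animals at 12 member regions, named by gene and distance from the start site in bases, for paternal chow (blue) and paternal high-fat (red) offspring; the bar is the mean with the SD over 5 animals, and each panel has its own scale. The groups do not overlap at the Neurog2, Tcf7 and Foxa1 regions; 4HFB is the high blue point at Zic2 (13.3%) and 8HFB at Tfap2c (4.61%), and the Foxo6 red points lie at 10.6% to 11.3% and at 21.0% to 22.9%.

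Genes with several regions often had both directions. Of the 54 member genes with 2 or more regions, 20 had all regions higher and 30 (55.6%) had both directions. The other 4 had all lower (Foxo6, Foxq1, Sox11 and Olig2). Of the 1987 such genes of the table, 827 had all higher, 123 all lower and 52.2% both. Without 4HFB, the Foxq1 region 167 bases from the start was higher, by 0.742 points. The other regions of the 4 genes stayed lower without that animal. Among 36 neighbouring pairs of member regions of the same gene at most 200 bases apart, 15 (41.7%) had opposite directions, beside 42.8% of 1587 pairs in the table.

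At most lower regions the same animal stood highest. Animal 4HFB of the paternal chow group had the highest level of all 10 animals at 31 of the 53 lower members (58.5%), beside 44.2% of the 2600 lower regions of the table. Averaged over these 53 regions, 4HFB stood at 7.98% and the other paternal chow animals at 4.37% to 4.85%, beside paternal high-fat animals at 3.15% to 3.71%, an order that the choice of lower regions sets. The median difference of the lower members was −1.53 points with and −1.06 points without 4HFB, and 49 of 53 kept their direction. The same animal had the most missing levels of the table (82) and the most levels listed at 0 (20.5% of its levels, against 2.27% to 13.1% in the others). Its depth is unknown, and the part of these in its levels was not tested.

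At the 136 higher members, 22HFR of the paternal high-fat group was the highest animal at 47 (34.6%), beside 37.5% of all higher regions. The median difference was 1.94 points with and 1.59 points without it, and 135 of 136 kept their direction. With 1 animal or another left out, the difference grew or shrank by a factor of more than 1.5 at 116 of the 189 members. No such count over all regions is given here, so it cannot be read as a trait of the members.

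The pathways around these factors were described by lists of genes. Of 32 Notch pathway genes, 10 had 23 regions, 16 higher and 7 lower. Adam10, which encodes a protease that cleaves Notch receptors, had the smallest p of this list, at 2.21% ± 0.999 against 0.358% ± 0.330 (SD, n = 5 each), and its groups did not overlap. A q below 0.05 stood in the authors' deposited table for 1 region of the list (0.0385), beside 0.848% of all regions, and the other 4 lists had none. It lay in exon 1 of 8 of Lfng, which encodes a glycosyltransferase that modifies Notch receptors, at 3.81% ± 2.56 against 1.21% ± 1.16 (SD, n = 5 each) with overlap. Lfng was named after its values were seen. The helix-loop-helix partner and Id list had regions at 21 of 27 genes, 24 higher and 15 lower, led by Mnt, a Max-binding repressor, at 4.10% ± 0.806 against 1.56% ± 1.04 (SD, n = 5 each).

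Wnt output genes had regions at 18 of 31 genes, 27 higher and 8 lower, led by Dvl3, which relays Wnt receptor signals, at 3.79% ± 2.50 against 0.125% ± 0.280 (SD, n = 5 each). Kinases and other regulators upstream of Foxo factors had regions at 14 of 25 genes, 20 higher and 9 lower, led by Ywhaz, a 14-3-3 protein gene, at 3.23% ± 2.07 against 0.513% ± 0.448 (SD, n = 5 each). GATA cofactors had regions at 8 of 15 genes, 11 higher and 7 lower, led by Lmo1 at 3.62% ± 2.11 against 1.01% ± 1.597 (SD, n = 5 each). With limma, 0 regions of these 5 lists passed the adjusted threshold. At an unadjusted p below 0.05 limma had 9 of 23 Notch regions (39.1%), 10 of 39 partner and Id regions (25.6%), 10 of 35 Wnt regions (28.6%) and 1 of 18 GATA cofactor regions (5.56%), all higher, and 2 higher and 2 lower of the 29 regions of the Foxo list (6.90% each way). Over all regions these shares were 16.4% higher and 4.52% lower. The partner and Wnt lists hold 2 and 3 member regions. The median difference of the 5 lists lay between 1.07 and 1.67 points, beside 1.41 points over all regions.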

How the data were processed

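Reduced representation bisulfite libraries of the arcuate nucleus of 10 rats were read with Trim Galore, Bismark and Bowtie, per the submitters' processing notes, whose versions are not used here. The authors' deposited table lists regions found with metilene, per the file headers, with the methylation level of each animal as a fraction averaged over the region, the group means, a q-value, a count of CpGs (at least 10 per region) and the nearest gene. The deposited scores are the signed difference of the group means and the distance to the start site. Fractions are printed here in percent. No source used here gives the genome build, the annotation version, the coverage or how metilene was set, so the depth is unknown and no interval or count test was possible. Start and end are printed as the table gives them.

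Levels were compared with limma 3.58.1 in R 4.3.3, with an intensity trend, 5 animals against 5, and Benjamini-Hochberg adjustment over all 8957 regions. The step was tested on simulated data with known differences. Tables and figures were made with Python 3.11.15, pandas 2.3.3, numpy 2.4.6 and matplotlib 3.10.9. Column names give an animal's group but no replicate number of the labels, so animals are called by their column names and no sample was left out.

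The members and gene lists were chosen with earlier results of these data known. Regions were named by a rule: a deposited q below 0.05, the 2 smallest limma p of each family, the 5 largest differences in each direction, all regions of genes with 4 or more, and for each list the region with the smallest p. Other regions are said to be chosen after their values were seen, or complete a gene so named. Some results that the rule names are not reported here. Alternatives tried were levels on the logit scale (offset 0.01), limma without trend or with robust variances, filters on missing levels, CpG number, level and size, autosomes only, the authors' group means, and each animal left out.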

Additional observations from a re-analysis of the deposited data

Results flagged for a closer look

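In 18 of 156 groups of 5 animals tested, 1 animal lay farther from its neighbour than Dixon's critical value of 0.71 of the group's range allows. Chance gives about 1 in 20 only for independent groups of normally distributed values. The regions share animals, so the flags are not independent, and some were named for a small p or a large difference. Many levels are also small, and tied levels force a flag. Upstream of Foxn3, 0.190% in 6HFB was flagged because all other paternal chow levels were equal. The count of 18 therefore cannot be set against 1 in 20, and no excess of flags is claimed.

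Animal 4HFB was the high one in 5 paternal chow groups. It stood at 6.09% at Olig2 (others 1.49% to 2.74%), 13.3% at Zic2 (4.65% to 5.88%), 2.63% at the Egr4 promoter (0.385% to 0.911%) and 19.7% upstream of Foxn2 (0% to 4.12%). It stood at 11.98% at the Klf16 promoter (1.45% to 3.71%). This animal also had the most levels listed at 0, 25 of 189 members, and the part of that in these levels was not tested.

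Animal 22HFR was the high one in 5 paternal high-fat groups. It stood at 11.3% (others 5.20% to 6.72%) at the region 28469 bases from the Foxn4 start, which lies in an exon of another transcript. At the Foxc2 regions 846 and 2055 bases from the start it stood at 4.59% and 16.1% (1.33% to 2.20% and 9.14% to 11.1%). Its mean over all members was 6.53% (4.93% to 5.28%) and its median 4.25% (2.94% to 3.21%).

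Animal 6HFB was the high one in 4 paternal chow groups, at 2.997% in the Foxd1 region 33841 bases from the start (others 0% to 0.227%), 2.50% in the Foxd2 exon (0.769% to 1.17%), 0.190% upstream of Foxn3 (all others 0%) and 3.61% at the Foxl2 promoter (0.481% to 0.965%). The other 4 flags were 9.84% in 28HFB at Egr3 as the low value (others 13.5% to 14.9%), 2.30% in 6HFBB at Bhlhe22 (0% to 0.181%), 4.61% in 8HFB at Tfap2c (0.729% to 1.35%) and 4.03% in 22HFB at Klf14 (0.959% to 1.74%).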

How the results depend on the processing

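With limma, no region passed an adjusted p of 0.05 under any alternative run, over the members or over all regions. The smallest adjusted p over all regions was 0.0833 (no trend) to 0.293 (without 2HFB). In the fits that kept all 189 members, 24 (without 6HFBB) to 56 (logit scale) had an unadjusted p below 0.05, against 48. Over all regions this count was 1392 without 2HFB and 2294 on the logit scale, against 1875. Between 135 and 140 members were higher whichever animal was left out and whatever the scale, and the mean difference ran from 0.844 to 1.27 points. Requiring at least 15 CpGs left 34 members, 26 of them higher and 1 without overlap. Requiring a difference of at least 2 points left 84, 66 of them higher, with a mean difference of 1.89 points; both counts are smaller because fewer regions remain. Leaving out an animal gave 11 to 24 members without overlap, since fewer animals overlap less, and no such count over all regions is given here. Leaving out 1 animal, the difference ran from −4.84 to 0.0784 points at Foxn2 (−21291 bases) and from −2.27 to 0.366 points at Klf16 (−365 bases), positive in both only without 4HFB; the cause was not tested. None of the 580 other values of named regions, under 9 alternatives that kept all animals, changed direction. Only the logit scale and the authors' group means could have changed it, because the other alternatives keep the same difference of means. By the authors' deposited q, 2 members were below 0.01 and 3 below 0.1. No paired analysis was possible because the columns carry no replicate number of the labels. Depth is unknown, so small levels and levels listed at 0 cannot be given a precision.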

Other observations

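Markers of the cell types that the dissection could hold were described by lists. Neuron markers had 13 regions at 6 of 17 genes, 9 higher and 4 lower, led by the promoter of Nefm, a neurofilament gene, at 3.67% ± 0.817 against 0.673% ± 0.576 (SD, n = 5 each) without overlap. Oligodendrocyte markers had 6 regions at 4 of 12 genes, 4 higher and 2 lower, of which 5 regions are also members (Olig and Sox10). Both lower ones were named for Olig2. The remaining one, in exon 2 of 6 of Mbp, a myelin gene, was methylated to 71.3% ± 7.51 in paternal high-fat and 57.0% ± 9.98 in paternal chow offspring (SD, n = 5 each), with levels of 60.2% to 78.5% and 42.9% to 66.6%. Its difference of 14.3 points had a limma unadjusted p of 0.0112 and an adjusted p of 0.235.

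Astrocyte and tanycyte markers had 2 regions, both at Rax, a tanycyte factor, at 2.07% ± 0.868 against 0.653% ± 0.404 (SD, n = 5 each) in exon 6 of 6. Pituitary markers had 5 regions at 3 of 10 genes, 3 higher and 2 lower. None of the 16 microglia, vessel and blood markers had a region, and methylation levels of selected regions give no cell type shares. With limma, 0 regions of these lists passed the adjusted threshold. At an unadjusted p below 0.05 limma had 2 higher and 1 lower of the 13 neuron regions (15.4% and 7.69%), and 1 higher region each of 6 oligodendrocyte, 2 astrocyte and tanycyte, and 5 pituitary regions, beside 16.4% higher and 4.52% lower over all regions.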
